A study of Mus musculus with 6 samples.

Results

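The genes described here carry glucose into the cell, break it down to lactate, export the lactate, sense oxygen or are switched on when oxygen is scarce. The list held 34 genes, chosen by name with earlier results of these data known. Counts of calls among them are thus not independent of these data. Every probe set annotated to 1 gene symbol on the list was taken, and a gene with several was represented by the one with the highest mean. Of the 34 genes, 31 had a probe set of their own and 30 were tested, out of 19938 genes with a probe set and 11147 tested. Eno2 lay below the expression filter. Gpi1 and Eno1 had no probe set annotated to them alone, and Gapdh was matched only by probe sets shared with other symbols, so these 3 genes were not analysed here.

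All samples were splenic CD8+ T cells of female mice of the C57BL/6 strain carrying the Pmel-1 T cell receptor transgene, whose receptor recognises the melanoma antigen gp100. Total RNA of 6 samples was hybridised to Affymetrix arrays, 2 for each of 3 groups. The naive group was sorted fresh as CD8+ Thy1.1+ cells. The IL-2 group was primed with gp100 for 4 days and stimulated with IL-2 for 6 days, and the IL-12 group was treated likewise with IL-12 in place of IL-2. The primed groups share the antigen, so neither shows cytokine without antigen, and naive cells differ from them in culture as well. Arrays are numbered 1 and 2 within a group as in the labels, which do not say that they came from separate mice or cultures, so the spread behind the p-values may be technical alone. The RNA is bulk RNA, in which more cells of a kind and more RNA per cell cannot be told apart.

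Glycolysis turns glucose into pyruvate through hexokinase, phosphofructokinase, aldolase and the enzymes below them, and activated T cells are known to send much of that pyruvate to lactate even when oxygen is present. The transcription factor Hif1a is made continuously and destroyed after prolyl hydroxylases of the Egln family mark it, a reaction that needs oxygen. When it persists, it pairs with Arnt and binds a short core motif near many genes of glycolysis, lactate export, mitophagy and vessel growth, and Egln3 itself is a well known target that feeds back on the factor.

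Much of the glycolytic pathway rose from naive to IL-2 cells and again from IL-2 to IL-12 cells, while the 2 IL-12 arrays lay apart for many low oxygen targets. Between IL-12 and IL-2 cells, 15 of the 30 tested genes rose and 0 fell (limma, Benjamini-Hochberg adjusted p under 0.05 over all genes tested), where 9.82% of all genes tested rose and 11.0% fell. The median difference was 0.66 on the log2 scale, against 0.02 over all genes tested. Between IL-2 and naive cells, 13 rose and 1 fell, with 25.8% and 19.9% of all genes called in those directions (2873 higher and 2222 lower, or 2439 and 3006 after centring arrays on their medians). Between IL-12 and naive cells, 22 rose and 2 fell, against 31.2% and 26.7% of all genes. The median differences were 0.31 for IL-2 against naive cells and 0.96 for IL-12 against naive cells. Both IL-12 arrays lay above both IL-2 arrays for 19 of the 30 genes and below them for 3. Over all 11147 genes tested these counts were 4027 and 3723. For IL-2 against naive arrays they were 19 and 2 of the 30 genes, and 4313 and 3928 of all genes. Groups without overlap were thus common among all genes. The 7 measured B cell markers rose from IL-2 to IL-12 cells as well, and their part in these differences was not tested.

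**Figure D1:**
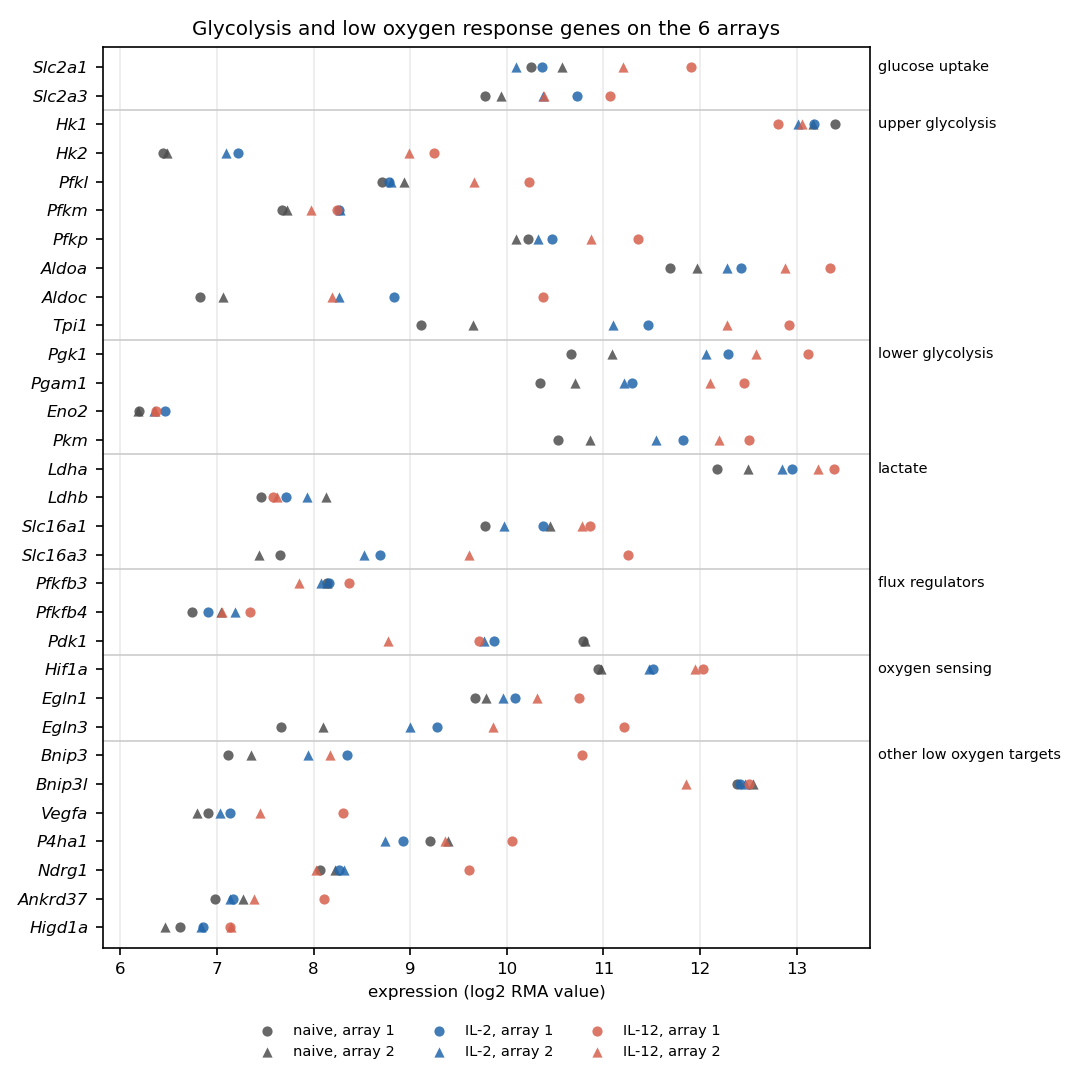
Expression on each array (x axis, log2 RMA value) of the 31 genes with a probe set of their own, ordered by role from glucose uptake at the top; circles are array 1 and triangles array 2 of the naive (grey), IL-2 (blue) and IL-12 (red) groups. Hk2, Tpi1 and Pgam1 step up from naive to IL-2 to IL-12 without overlap, Pdk1 is highest in naive cells, and IL-12 array 1 stands apart for Aldoc and Bnip3.

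Promoters of 4 genes are shown because they span the patterns that follow. Hk2 rose in IL-12 cells by similar amounts on both arrays, and Slc16a3 and Egln3 rose with a wide gap between the arrays. On the probe set used, Bnip3 was high on IL-12 array 1 alone. Each line holds the 250 bases before the start site, read 5′ to 3′ on the strand of the gene, from RefSeq sequences of GRCm38.p6. Capitals mark the core motif of the low oxygen response, ACGTG or GCGTG, on either strand, so CACGT and CACGC mark matches on the other strand; CACGTG is also the E-box, which Myc and other factors bind. The windows are chr6:82774455-82774704 on the minus strand for Hk2, chr11:120948817-120949066 on the plus strand for Slc16a3, chr12:54203875-54204124 on the minus strand for Egln3 and chr7:138909507-138909756 on the minus strand for Bnip3.
Hk2: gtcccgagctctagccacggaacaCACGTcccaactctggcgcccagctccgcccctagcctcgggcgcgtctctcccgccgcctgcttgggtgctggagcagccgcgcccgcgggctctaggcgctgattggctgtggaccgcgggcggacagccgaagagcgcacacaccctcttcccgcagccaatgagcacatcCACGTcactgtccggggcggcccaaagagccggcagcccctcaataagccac
Slc16a3: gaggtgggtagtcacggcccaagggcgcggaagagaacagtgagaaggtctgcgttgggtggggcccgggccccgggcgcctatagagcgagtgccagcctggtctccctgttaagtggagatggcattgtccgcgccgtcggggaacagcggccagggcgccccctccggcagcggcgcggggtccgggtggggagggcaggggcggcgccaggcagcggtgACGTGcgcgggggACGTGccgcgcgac
Egln3: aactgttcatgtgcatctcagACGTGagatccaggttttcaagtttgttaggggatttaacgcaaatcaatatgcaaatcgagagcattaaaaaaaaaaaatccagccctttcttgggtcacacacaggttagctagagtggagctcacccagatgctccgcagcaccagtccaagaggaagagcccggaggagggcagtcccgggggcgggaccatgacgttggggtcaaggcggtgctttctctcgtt
Bnip3: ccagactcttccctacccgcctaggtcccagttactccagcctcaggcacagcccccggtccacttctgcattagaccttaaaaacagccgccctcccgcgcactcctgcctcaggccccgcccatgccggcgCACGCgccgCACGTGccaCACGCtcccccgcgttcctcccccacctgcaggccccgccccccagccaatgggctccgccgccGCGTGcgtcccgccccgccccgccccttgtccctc
The Hk2 and Slc16a3 windows held 2 matches each, the Egln3 window held 1, and the Bnip3 window held 5, of which 2 are the opposite strands of a single E-box.

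Of the 34 listed genes, 31 had a RefSeq window, and 28 of these (90.3%) held ACGTG or GCGTG on either strand in a window that also takes the 50 bases after the start; Slc2a3, Bnip3l and Ndrg1 had no entry. A gene was counted if any of its windows held a match. Among all genes tested with a window the share was 66.9% of 8950 genes, and among all genes with a window it was 46.7% of 27025. Counted by window, it was 43.8% of all 32851 windows of this length. For ACGTG alone the shares were 22 of 31 listed genes (71.0%) and 29.5% of the genes tested. The E-box CACGTG, counted apart because it contains ACGTG, was in 6 of the 31 genes (19.4%) and in 11.8% of the genes tested. Tested genes of the list with a window were also split by the IL-12 arrays. Of those with array 1 at least 0.5 above array 2, 12 of 13 held either motif and 10 of 13 held ACGTG. For the others these counts were 14 of 14 and 11 of 14, and a link of motif to pattern was not tested. The 3 genes with a window and no match were Tpi1, Eno2 and Gpi1, and no match says only that these letters are not in the window.

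Glucose enters T cells mainly through the transporters Slc2a1 and Slc2a3. Slc2a1 rose in IL-12 over IL-2 cells and Slc2a3 in IL-2 over naive cells. Slc2a1 read 10.25 and 10.57 on the naive arrays, 10.36 and 10.10 on the IL-2 arrays and 11.91 and 11.20 on the IL-12 arrays. Both IL-12 arrays thus lay above all others while naive and IL-2 overlapped. Slc2a1 rose by 1.33 ± 0.22 (log2, SE of the limma fit, 2 arrays per group) from IL-2 to IL-12 cells, which is 2.51-fold (limma adjusted p = 0.00405). Slc2a3 read 9.77 and 9.94 in naive, 10.73 and 10.37 in IL-2 and 11.07 and 10.39 in IL-12 cells. It rose from naive to IL-2 cells by 0.69 ± 0.21 (limma adjusted p = 0.0263), although not once naive array 1 or IL-2 array 1 was left out or arrays were weighted, and IL-12 and IL-2 arrays overlapped (0.18 ± 0.21, limma adjusted p = 0.594).

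Hexokinases trap glucose by phosphorylation, and Hk2, the inducible form, had the smallest adjusted p of the list in the comparison of the cytokines. Hk2 read 6.44 and 6.48 in naive, 7.22 and 7.09 in IL-2 and 9.25 and 8.99 in IL-12 cells. The 3 groups did not overlap, and both IL-12 arrays were at least 1.83 above the IL-2 mean. The rise from IL-2 to IL-12 cells was 1.96 ± 0.12, or 3.90-fold (limma adjusted p = 2.57e-05), after a rise of 0.70 ± 0.12 from naive to IL-2 cells (limma adjusted p = 0.00167). Hk1, the constitutive form, was represented by a probe set that read 13.40 and 13.17 in naive, 13.18 and 13.01 in IL-2 and 12.81 and 13.06 in IL-12 cells. It fell by 0.35 ± 0.13 from naive to IL-12 cells (limma adjusted p = 0.0472), a call lost in 11 of 18 other settings. That probe set is listed without a RefSeq mRNA and reads within the range of 16 probe sets that Hk1 shares with other symbols (11.76 to 13.65). The Hk1 probe set with a RefSeq mRNA read 9.95 to 10.31, and there the difference was 0.08 (limma adjusted p = 0.629).

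Phosphofructokinase commits sugar to glycolysis, and all 3 of its isoforms are on the list. Pfkl, the liver form, read 8.71 and 8.94 in naive, 8.78 and 8.80 in IL-2 and 10.23 and 9.66 in IL-12 cells, so that IL-12 cells stood above overlapping naive and IL-2 cells. Its rise over IL-2 cells was 1.15 ± 0.18 (limma adjusted p = 0.00274). Pfkp, the platelet form, read 10.22 and 10.10 in naive, 10.47 and 10.32 in IL-2 and 11.36 and 10.87 in IL-12 cells and rose by 0.72 ± 0.16 over IL-2 cells (limma adjusted p = 0.0143). Without IL-12 array 1, or without either IL-2 array, the Pfkp call was lost. Pfkm, the muscle form, read 7.67 and 7.73 in naive, 8.26 and 8.27 in IL-2 and 8.24 and 7.97 in IL-12 cells. It rose from naive to IL-2 cells by 0.56 ± 0.12 (limma adjusted p = 0.00438), and IL-12 differed from IL-2 cells by -0.16 ± 0.12 (limma adjusted p = 0.373).

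Aldolase splits the sugar into triose phosphates and Tpi1 interconverts them. Aldoa, the widely expressed form, read 11.69 and 11.97 in naive, 12.42 and 12.28 in IL-2 and 13.35 and 12.88 in IL-12 cells, with no overlap between groups. It rose by 0.77 ± 0.17 over IL-2 cells (limma adjusted p = 0.0133), a call that needed IL-12 array 1 and both IL-2 arrays. Aldoc, a form best known from brain, read 6.82 and 7.06 in naive, 8.83 and 8.26 in IL-2 and 10.38 and 8.19 in IL-12 cells. Array 2 of the IL-12 cells was below both IL-2 arrays and array 1 far above them, so the difference of 0.74 ± 0.56 did not pass the test (limma adjusted p = 0.387), whereas from naive to IL-2 cells Aldoc rose by 1.61 ± 0.56 (limma adjusted p = 0.0428), a call lost without any 1 of the naive or IL-2 arrays, with no filter, after centring, with trended and robust estimation and with array weights. Tpi1 had the widest span from naive to IL-12 cells among the tested genes of the list. It read 9.11 and 9.65 in naive, 11.46 and 11.10 in IL-2 and 12.92 and 12.28 in IL-12 cells. The groups did not overlap, and Tpi1 rose by 1.90 ± 0.24 from naive to IL-2 cells (limma adjusted p = 0.000301) and by 1.32 ± 0.24 from IL-2 to IL-12 cells (limma adjusted p = 0.00619), the latter lost without IL-2 array 2.

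The lower part of glycolysis yields ATP and pyruvate, and its 3 tested genes rose at both steps. Of all genes tested, 25.8% rose from naive to IL-2 cells and 9.82% from IL-2 to IL-12 cells. Pgk1, which makes the first ATP, read 10.66 and 11.09 in naive, 12.29 and 12.06 in IL-2 and 13.12 and 12.58 in IL-12 cells. The mutase Pgam1 read 10.34 and 10.71, then 11.30 and 11.21, then 12.46 and 12.10 in the same order, and Pkm, pyruvate kinase, read 10.53 and 10.86, 11.82 and 11.54, and 12.51 and 12.20. For each of them both IL-12 arrays were above both IL-2 arrays, which were above both naive arrays. From IL-2 to IL-12 cells the rises were 0.67 ± 0.20 for Pgk1 (limma adjusted p = 0.0434), 1.03 ± 0.16 for Pgam1 (0.00296) and 0.68 ± 0.16 for Pkm (0.0194). The Pgk1 call was lost without IL-12 array 1 or either IL-2 array, with no filter and after a further quantile normalization, and the Pkm call without IL-12 array 1 or IL-2 array 2, while Pgam1 kept its call without any array. From naive to IL-2 cells they were 1.30 ± 0.20 for Pgk1 (limma adjusted p = 0.000888), 0.73 ± 0.16 for Pgam1 (0.00569) and 0.98 ± 0.16 for Pkm (0.00126). Pgk1 and Pgam1 have further probe sets with near-identical readings, and Pkm has another that ran from 9.89 to 12.01, so the array may not separate these genes from related copies. The neuronal enolase Eno2 read 6.18 to 6.46 over the 6 arrays, below the filter of 6.83.

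Lactate is made by lactate dehydrogenase and leaves through monocarboxylate transporters. Slc16a3, the exporter typical of highly glycolytic cells, read 7.65 and 7.43 in naive, 8.69 and 8.52 in IL-2 and 11.26 and 9.61 in IL-12 cells. The groups did not overlap, yet the IL-12 arrays differed from each other by 1.65. It rose by 1.83 ± 0.41 from IL-2 to IL-12 cells, or 3.56-fold (limma adjusted p = 0.0157), and it kept its call without either IL-12 array but not without either IL-2 array. Slc16a1, which carries lactate in both directions, read 9.77 and 10.45 in naive, 10.38 and 9.97 in IL-2 and 10.86 and 10.78 in IL-12 cells. Both IL-12 arrays were highest, but the difference of 0.64 ± 0.21 from IL-2 cells did not pass the test (limma adjusted p = 0.0651). Ldha, the subunit that favours lactate, read 12.18 and 12.50 in naive, 12.95 and 12.85 in IL-2 and 13.39 and 13.22 in IL-12 cells. It rose from naive to IL-2 cells by 0.56 ± 0.13 (limma adjusted p = 0.00838) unless IL-2 array 1 was left out, and the further 0.41 ± 0.13 to IL-12 cells missed the threshold (limma adjusted p = 0.0596). Ldhb, the subunit that favours pyruvate, lay between 7.46 and 8.13 on all arrays and was not called in any of the 3 comparisons.

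None of the 3 genes that regulate the flux was called higher in any comparison, where 9.82% to 31.2% of all genes tested were. Pdk1 limits the use of pyruvate in the mitochondria by inactivating pyruvate dehydrogenase and is a known target of Hif1a. It read 10.79 and 10.81 in naive, 9.87 and 9.76 in IL-2 and 9.71 and 8.77 in IL-12 cells, so naive cells were highest and IL-12 array 2 lowest. It fell by 0.99 ± 0.25 from naive to IL-2 cells (limma adjusted p = 0.0106, lost without IL-2 array 2) and by 1.56 ± 0.25 from naive to IL-12 cells (limma adjusted p = 0.000665). Pfkfb3 and Pfkfb4 make the activator of phosphofructokinase. Pfkfb3 lay between 7.85 and 8.37 and Pfkfb4 between 6.74 and 7.34 on all arrays, and neither was called in any comparison.

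The 3 oxygen sensing genes on the list all rose in IL-12 over IL-2 cells, where 9.82% of all genes tested rose. Hif1a read 10.94 and 10.98 in naive, 11.51 and 11.47 in IL-2 and 12.03 and 11.95 in IL-12 cells; the groups did not overlap. It rose by 0.53 ± 0.10 from naive to IL-2 cells (limma adjusted p = 0.00257) and by 0.50 ± 0.10 from IL-2 to IL-12 cells (limma adjusted p = 0.0094). Because Hif1a is regulated chiefly as a protein, its RNA is not a measure of its activity. Egln1, the main prolyl hydroxylase, read 9.67 and 9.78, then 10.09 and 9.96, then 10.75 and 10.31 and rose by 0.50 ± 0.15 over IL-2 cells (limma adjusted p = 0.0446). Egln3, the inducible one, read 7.66 and 8.10 in naive, 9.28 and 9.0 in IL-2 and 11.21 and 9.86 in IL-12 cells. Its groups did not overlap, and it rose by 1.40 ± 0.36 over IL-2 cells (limma adjusted p = 0.0266) and by 1.26 ± 0.36 from naive to IL-2 cells (limma adjusted p = 0.0198). The calls of these 3 genes against IL-2 cells were each lost without IL-12 array 1 or without either IL-2 array, and the rise of Egln3 from naive to IL-2 cells without naive array 1 or either IL-2 array. Egln1 also missed the threshold with no filter on low values and after a further quantile normalization.

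The remaining low oxygen targets serve mitophagy, vessel growth, collagen and other ends. Of these, 2 of 7 rose in IL-12 over IL-2 cells, where 9.82% of all genes tested rose. Vegfa, the vessel growth factor, read 6.91 and 6.79 in naive, 7.13 and 7.03 in IL-2 and 8.30 and 7.45 in IL-12 cells and rose by 0.80 ± 0.23 (limma adjusted p = 0.0399). P4ha1, a collagen prolyl hydroxylase, read 9.21 and 9.39 in naive, 8.93 and 8.74 in IL-2 and 10.05 and 9.36 in IL-12 cells and rose by 0.87 ± 0.20 over IL-2 cells (limma adjusted p = 0.0179). IL-12 array 2 of P4ha1 was within the naive range, and both calls were lost without IL-12 array 1 or either IL-2 array, and that of Vegfa with no filter. The mitophagy receptor Bnip3 read 7.11 and 7.35 in naive, 8.35 and 7.94 in IL-2 and 10.78 and 8.17 in IL-12 cells. IL-12 array 1 was far above every other array and array 2 lay between the IL-2 arrays, so its difference of 1.33 ± 0.65 was not called (limma adjusted p = 0.179). A further Bnip3 probe set read 7.45 on both IL-2 arrays and 9.86 and 7.85 on the IL-12 arrays. There the gap was narrower and IL-12 array 2 also lay above the IL-2 arrays. Against naive cells Bnip3 rose by 2.25 ± 0.65 (limma adjusted p = 0.0156), a call lost without either naive array and with trended and robust estimation. Its relative Bnip3l read 12.38 to 12.55 in naive and IL-2 cells and 12.51 and 11.86 in IL-12 cells, with only array 2 below the others.

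Ndrg1, a stress-induced gene, read 8.07 and 8.22 in naive, 8.26 and 8.31 in IL-2 and 9.61 and 8.03 in IL-12 cells, again high on IL-12 array 1 alone, and was not called in any comparison. Ankrd37 read 6.98 to 7.27 in naive and IL-2 cells and 8.11 and 7.38 in IL-12 cells. The difference from IL-2 cells was 0.59 ± 0.21 (limma adjusted p = 0.08), and against naive cells it rose by 0.62 ± 0.21 (limma adjusted p = 0.0322), a call lost without naive array 1, either IL-2 array or IL-12 array 1, with array weights and with only the groups compared. Higd1a, a mitochondrial protein of the low oxygen response, read 6.62 and 6.46 in naive, 6.86 and 6.83 in IL-2 and 7.13 and 7.15 in IL-12 cells, close to the filter of 6.83. Both naive arrays lay below that filter, so Higd1a entered the test through the primed arrays. It rose by 0.61 ± 0.10 from naive to IL-12 cells (limma adjusted p = 0.00107), and its rise of 0.31 ± 0.10 from naive to IL-2 cells (limma adjusted p = 0.0373) was lost without any 1 array other than naive array 1 and in 11 of 17 other settings in all. A further Higd1a probe set with a RefSeq mRNA read 6.87 and 6.35 in naive and 6.80 and 6.66 in IL-2 cells. On the IL-12 arrays it read 6.69 and 6.89, so its groups overlapped and did not show these rises.

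Set against naive cells, the 22 rises in IL-12 cells ran from 0.40 ± 0.12 for Pfkm (limma adjusted p = 0.016), lost without IL-12 array 1, to 3.22 ± 0.24 for Tpi1 (7.69e-06), a 9.31-fold difference. After Tpi1 came Slc16a3 with 2.90 ± 0.41 (limma adjusted p = 0.000375), Hk2 with 2.66 ± 0.12 (3.5e-07), Egln3 with 2.66 ± 0.36 (0.000278) and Aldoc with 2.34 ± 0.56 (0.00615). This order depended on IL-12 array 1: without it the differences were 2.90 for Tpi1, 2.53 for Hk2, 2.07 for Slc16a3, 1.98 for Egln3 and 1.25 for Aldoc. The genes without a call in this comparison were Ldhb, Pfkfb3, Pfkfb4, Bnip3l, P4ha1 and Ndrg1. This comparison shares its arrays with the other 2, so it adds the size of the whole span and no separate evidence.

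**Figure D2:**
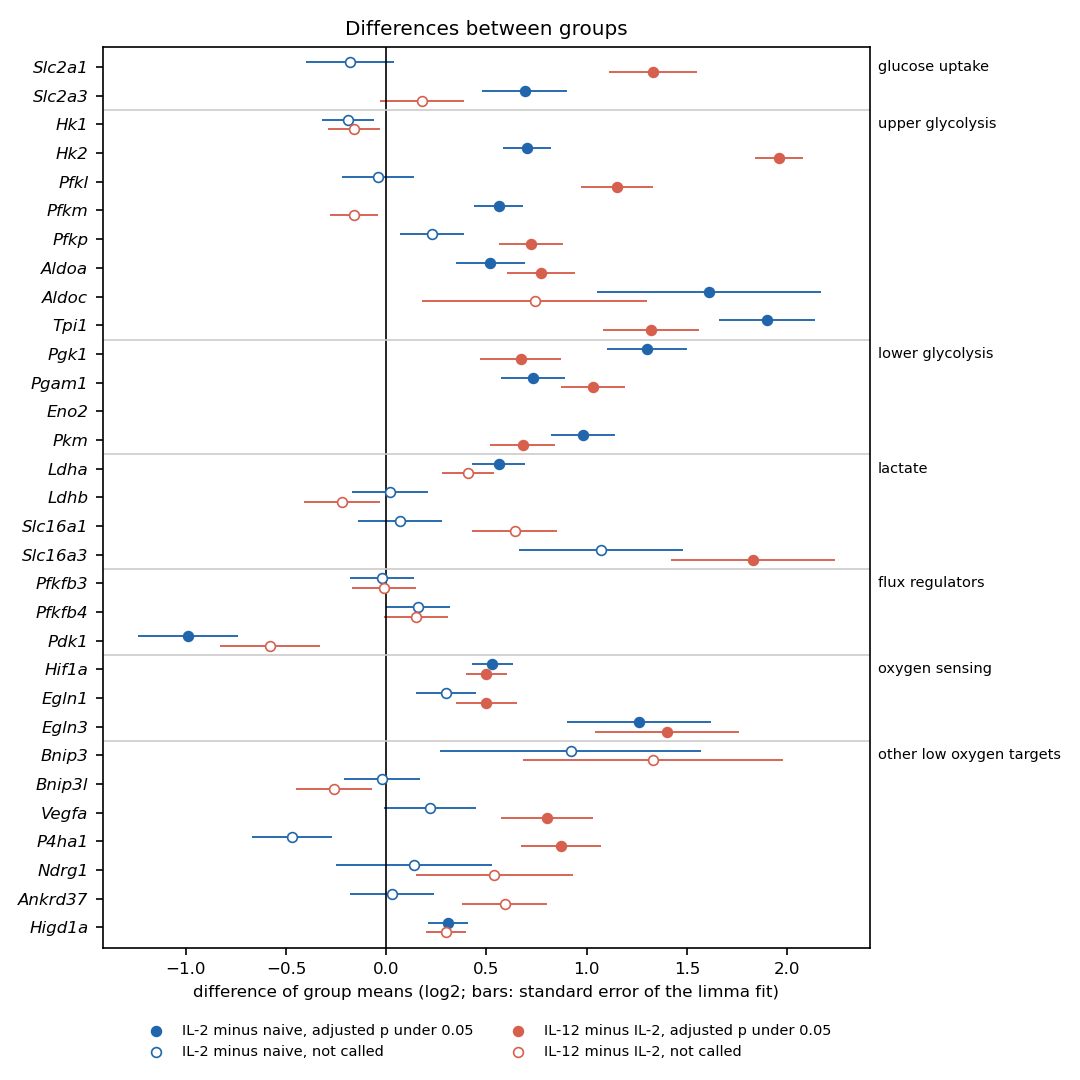
Difference of group means (x axis, log2, with limma standard errors as bars) for IL-2 minus naive (blue) and IL-12 minus IL-2 (red) in each tested gene; filled points had an adjusted p under 0.05. Tpi1 (1.90) leads the first step and Hk2 (1.96) the second, Slc2a1 and Pfkl are filled at the second step and open at the first, and Pdk1 (-0.99) is the filled point below 0.

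The number of calls depended on single arrays. The 15 rises in IL-12 over IL-2 cells became 6 without IL-12 array 1, 19 without IL-12 array 2, 6 without IL-2 array 1, 4 without IL-2 array 2 and 18 without either naive array. Over all genes tested the 1095 rises became 613, 481, 462, 338 and 1695 in the same order. Slc2a1, Hk2, Pfkl and Pgam1 kept their call without any array, and Tpi1 and Slc16a3 joined them when IL-12 array 1 was left out. With that array gone Pdk1 and Bnip3l were called lower in IL-12 than in IL-2 cells (log2 differences of -1.04 and -0.58), and the median difference of the 30 genes was 0.35 in place of 0.66. A fit without 1 array takes the lone array of its group to vary like the other groups.

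The IL-12 arrays differed from each other across most of the list, and in one direction. IL-12 array 1 was at least 0.5 above array 2 for 16 of the 30 tested genes (53.3%), a gap that 1.02% of all genes tested reached, and no listed gene was as far below, where 0.780% of all genes were. The median of array 1 minus array 2 was 0.52 in IL-12, 0.13 in IL-2 and -0.20 in naive cells, against -0.02, 0 and -0.07 over all genes tested. In IL-2 cells 1 gene, Aldoc, reached 0.5, and in naive cells none did and 3 lay at least 0.5 the other way. The gap is a difference of single arrays and has no test.

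Bnip3 had the widest gap of all 11147 genes tested, 2.61 or 6.1-fold on the probe set used, and a narrower one on its further probe set (9.86 and 7.85). Aldoc came next with 2.19. Slc16a3 (1.65), Ndrg1 (1.57) and Egln3 (1.35) ranked 5, 7 and 9 of all genes, and these were the 5 listed genes among the 18 of all genes with a gap of at least 1. Pdk1 followed with 0.93, then Vegfa with 0.85, Ankrd37 with 0.72 and Slc2a1 with 0.71. At the other end Higd1a (-0.02), Ldhb (-0.04), Hif1a (0.08) and Slc16a1 (0.08) were close on the IL-12 arrays, and Hk1 was 0.25 lower on array 1. By role, 6 of 7 other low oxygen targets, both glucose transporters, 3 of 8 upper and 1 of 3 lower glycolytic genes reached 0.5. So did 1 of 4 lactate genes, 2 of 3 flux regulators and 1 of 3 oxygen sensing genes. Pdk1 and Bnip3l, which did not rise in IL-12 cells, had the gap too. Among the other 13 of the 18 genes were Fos (2.03), Fosb (1.59), Egr1 (1.15) and Dusp1 (1.08), which are immediate early genes of the general response to stimulation; their part in the gap was not tested.

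**Figure D3:**
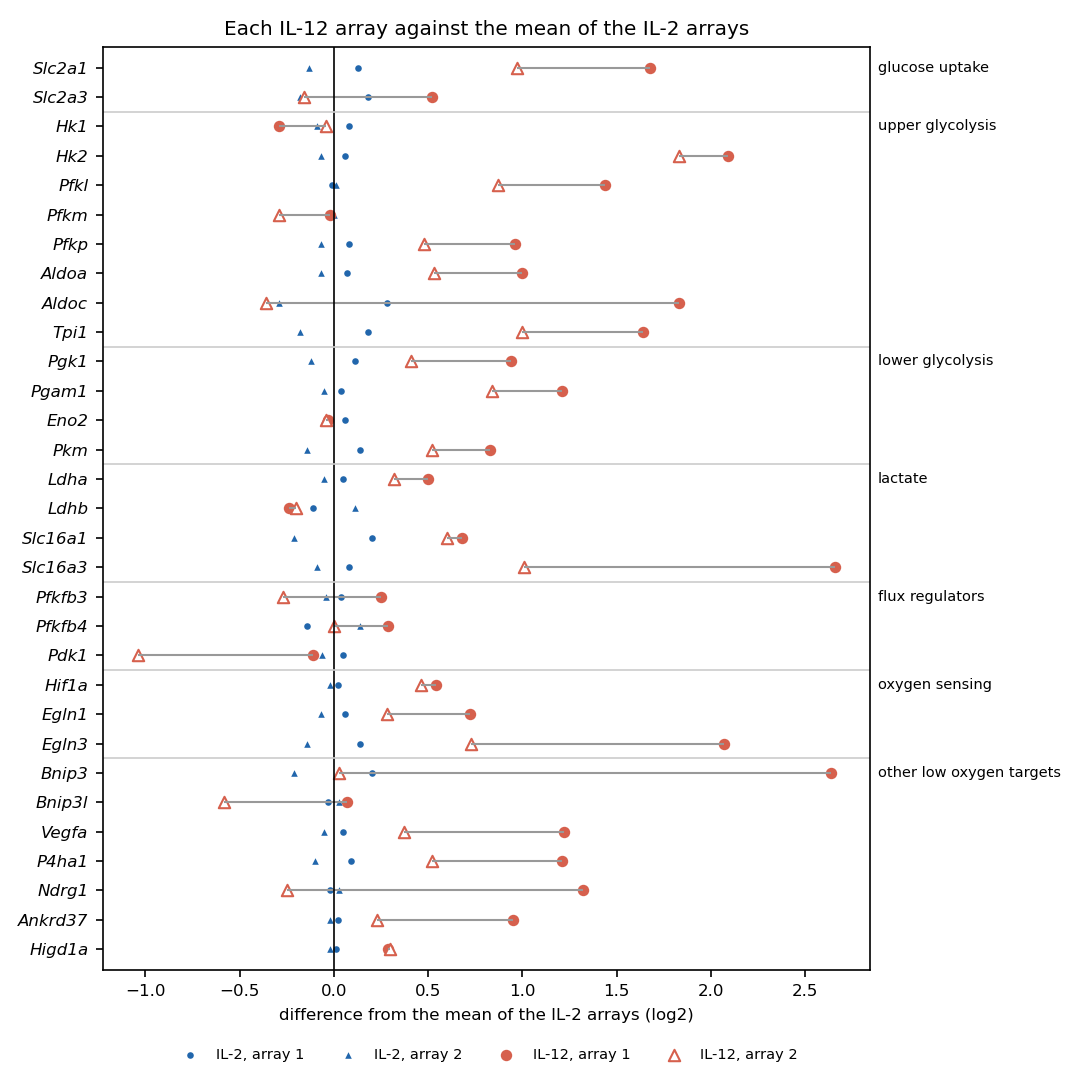
Difference of each IL-12 array (red circle, array 1; open triangle, array 2) and each IL-2 array (small blue symbols) from the mean of the IL-2 arrays (x axis, log2), 1 gene per row. Hk2 (2.09 and 1.83) is high on both IL-12 arrays, and Bnip3 (2.64 and 0.03), Aldoc (1.83 and -0.36) and Ndrg1 (1.32 and -0.25) on array 1 alone. Pdk1 (-0.11 and -1.04) is slightly below the IL-2 arrays on array 1 and far below them on array 2.

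**Figure D4:**
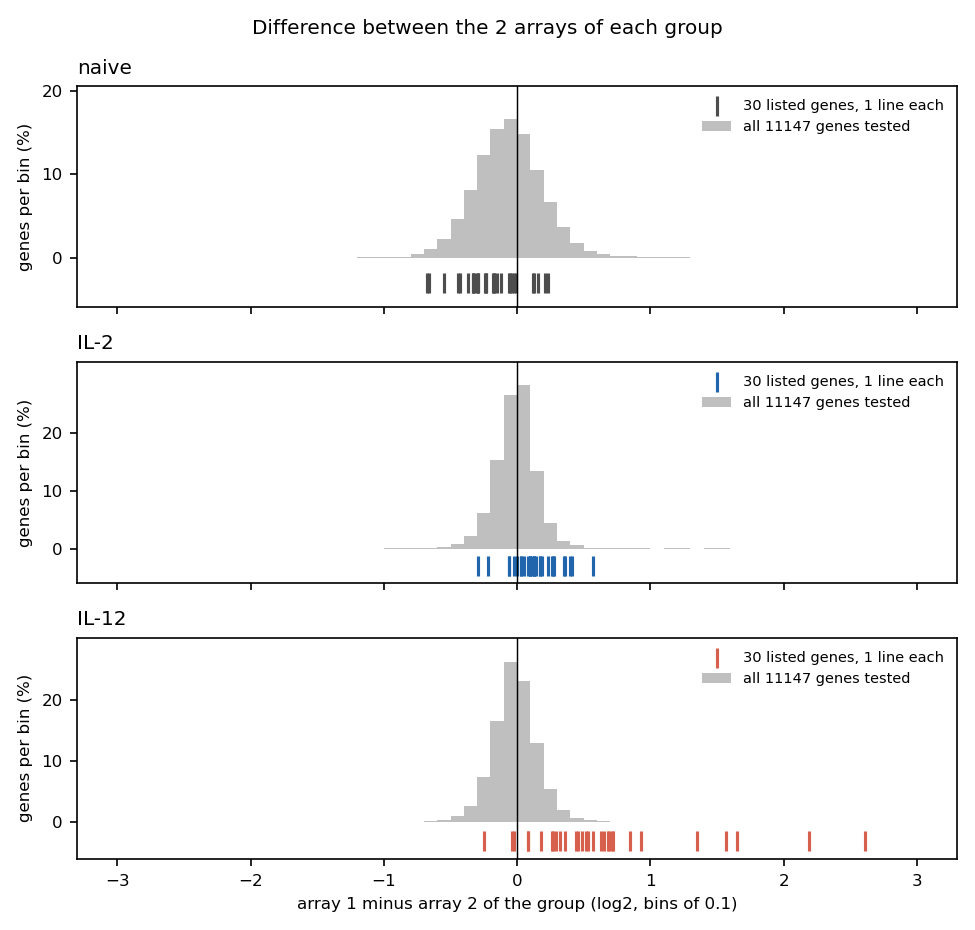
Array 1 minus array 2 of a group (x axis, log2) for all 11147 genes tested (grey bars, percent of genes per bin of 0.1) and for the 30 listed genes (coloured lines below the bars). The listed genes reach 2.61 in IL-12 cells and stay between -0.29 and 0.57 in IL-2 cells and between -0.68 and 0.23 in naive cells.

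Genes of the same pathways outside the list were taken from 3 further lists, also chosen with earlier results of these data known. Of 40 other low oxygen targets 29 were tested, and 13 rose (44.8%) and 1 fell (3.45%) in IL-12 over IL-2 cells, where 9.82% and 11.0% of all genes did, with a median of 0.40. Errfi1, a brake on growth factor receptors, read 9.06 and 8.95 in IL-2 and 11.02 and 11.15 in IL-12 cells and rose by 2.07 ± 0.13 (limma adjusted p = 2.57e-05). The nuclear receptor Rora rose by 1.03 ± 0.10 (limma adjusted p = 0.000232), the heme oxygenase Hmox1 by 1.20 ± 0.16 (0.00137) and the carbonic anhydrase Car12 by 0.93 ± 0.13 (0.00155). Hmox1 read 10.67 and 10.70 in naive, 8.10 and 7.58 in IL-2 and 9.11 and 8.99 in IL-12 cells. It was thus lower in IL-12 than in naive cells, with a difference of -1.64 ± 0.16 (limma adjusted p = 4.06e-05). Car12 passed the filter through the IL-12 arrays alone (7.64 and 7.36, against 6.15 to 6.66 elsewhere), so its rise follows from its entry into the test. These 4 genes had gaps of -0.13 to 0.28 between the IL-12 arrays. They were named for a small adjusted p, which favours a small gap, so they do not speak for the list. The classical targets Car9 (5.96 to 6.25) and Adm (5.74 to 6.06) stayed below the filter on all arrays. In this list 7 of 29 genes were at least 0.5 higher on IL-12 array 1 and 0 lower, with a median of 0.25; the 7, named after their values were seen, were Fam162a (0.78), Stc2 (0.70), Kdm4b (0.59), Ero1a (0.56), Ddit4 (0.55), Hilpda (0.53) and Gys1 (0.52).

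Of 41 other glycolytic and pyruvate genes, 28 were tested, of which 4 rose (14.3%) and 5 fell (17.9%) in IL-12 over IL-2 cells, against 9.82% and 11.0% of all genes, with a median of 0.03. In IL-2 over naive cells 8 rose (28.6%) and 5 fell (17.9%), against 25.8% and 19.9%. Pdk2, a relative of Pdk1, read 8.32 and 8.70 in IL-2 and 7.11 and 7.19 in IL-12 cells and fell by 1.36 ± 0.15 (limma adjusted p = 0.000556). The transporter Slc16a6 rose by 0.81 ± 0.17 (limma adjusted p = 0.0114), and the muscle enolase Eno3 fell by 0.48 ± 0.11 (0.0144) and Pfkfb2 by 0.41 ± 0.10 (0.0239). On the IL-12 arrays 2 of the 28 had a gap of at least 0.5.

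The machinery that senses oxygen and relays it had 13 of 15 genes tested, of which 2 rose (15.4%) and 1 fell (7.69%) in IL-12 over IL-2 cells, shares near the 9.82% and 11.0% of all genes, with a median of 0.21, and none had a gap of 0.5 between the IL-12 arrays. Epas1, which encodes the relative of Hif1a known as HIF-2 alpha, read 7.07 and 7.01 in IL-2 and 8.23 and 8.43 in IL-12 cells and rose by 1.29 ± 0.12 (limma adjusted p = 0.000183). Cul2, a scaffold of the ligase that destroys Hif1a, rose by 0.68 ± 0.11 (limma adjusted p = 0.00354). The coactivator Crebbp fell by 0.54 ± 0.14 (limma adjusted p = 0.0291), and Siah2, a ligase acting on Egln proteins, differed by 0.42 ± 0.13 (limma adjusted p = 0.0517).

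The label of CD8+ T cells was met by high levels of Cd8a (12.12 to 12.66) and Cd3e (12.76 to 13.31), with Cd4 below the filter (6.19 to 6.61). Another gene of the CD4 list, Zbtb7b, read 7.01 and 7.41 in naive, 9.01 and 9.15 in IL-2 and 8.87 and 8.62 in IL-12 cells and rose by 1.87 ± 0.15 from naive to IL-2 cells (limma adjusted p = 2.15e-05). The summed level of that list was 8.62 and 8.61 in naive, 9.53 and 9.63 in IL-2 and 9.42 and 9.31 in IL-12 cells. Markers of other cells moved with the groups. The 7 measured B cell markers, Cd79a and Ms4a1 among them, were lower in IL-2 than in naive cells (7 of 7 called, against 19.9% of all genes tested). They were higher in IL-12 than in IL-2 cells (7 of 7 called, against 9.82%). Blk passed the filter through the naive arrays alone (7.65 and 7.45), so its fall follows from its entry into the test. Its rise from IL-2 (6.43 and 6.21) to IL-12 cells (6.82 and 6.77) lay wholly below the filter. Ms4a1, Cd22 and Fcrla were below the filter on both IL-2 arrays. The summed B cell level was 12.13 and 12.23 in naive, 10.07 and 10.03 in IL-2 and 11.21 on both IL-12 arrays (log2). Of 7 CD8 T cell markers 4 fell from IL-2 to IL-12 cells, where 11.0% of all genes tested fell. Of the myeloid markers 4 of 5 tested fell from naive to IL-2 cells, where 19.9% of all genes tested fell. Lyz2 (9.31 and 9.35 in naive cells), Csf1r (8.52 and 8.95) and Adgre1 (7.34 and 7.85) passed the filter through the naive arrays alone. Their falls thus follow from their entry into the test. Cd68 read 9.27 and 9.67 in naive and 8.38 and 8.20 in IL-2 cells. Itgam alone was called from IL-2 to IL-12 cells, having passed the filter through the IL-12 arrays alone (7.41 and 7.63, against 6.19 to 6.59). The summed myeloid level was 10.98 and 11.28 in naive, 9.50 and 9.42 in IL-2 and 9.66 on both IL-12 arrays. The myeloid genes Cd14, S100a8 and S100a9 and the natural killer genes Ncr1 and Klrb1c stayed below the filter. Tyrobp, the 1 tested gene of the natural killer list, read 8.97 and 9.07 in naive, 6.79 and 6.52 in IL-2 and 7.36 and 6.95 in IL-12 cells and fell by 2.37 ± 0.16 from naive to IL-2 cells (limma adjusted p = 5.25e-06). Between the IL-12 arrays the summed B cell and myeloid levels were equal to 2 decimals and the CD8 level differed by little (15.05 and 15.02), while the summed natural killer level was 8.21 and 7.94.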

How the data were processed

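The authors deposited log2 values of 35556 probe sets in a single table, computed by RMA (background correction, quantile normalization and probe summary) per the submitters' processing notes; its settings are not given in the sources used here. Gene symbols came from the platform annotation given with the data. Each gene took its probe set with the highest mean, and genes with at least 2 of 6 arrays above the 50th percentile (6.83) were tested. A limma model (version 3.58.1, under R 4.3.3) with a mean for each group was fitted to all arrays with lmFit and moderated with eBayes (3 residual and 5.62 prior degrees of freedom). Tests were two-sided, with Benjamini-Hochberg adjustment over 11147 genes and a threshold of 0.05. The fit was tested on simulated data. The members and lists were chosen with earlier results of these data known.

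All listed genes are named, and of each further pathway list the 4 with the smallest adjusted p in IL-12 against IL-2 cells, plus defining genes not expressed. Same-numbered arrays of different groups share only a number. Other settings tried were dropping the filter or raising it to the 75th percentile (8.79), averaging probe sets or taking the most variable one, a further quantile normalization, centring arrays on their medians, trended and robust eBayes, array weights, fits of the compared groups alone, the replicate block, testing against 1.5-fold, and omitting each array in turn; preferring probe sets with a RefSeq mRNA was added after seeing the data. Levels are not compared between genes, and the number of arrays limits the precision.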

Additional observations from a re-analysis of the deposited data

How the results depend on the processing

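With 2 arrays per group each count rests on few arrays. A test against a 1.5-fold change left 1 rise in IL-12 over IL-2 cells (Hk2), 2 rises and 0 falls in IL-2 over naive cells, and 11 rises and 1 fall in IL-12 over naive cells. Of all genes, 1.13%, 6.89% and 11.0% rose under that test in the same order. Leaving out 1 array at a time gave 4 to 19 rises and 0 to 2 falls for IL-12 against IL-2, 7 to 14 rises and 0 to 2 falls for IL-2 against naive, and 19 to 23 rises and 1 to 2 falls for IL-12 against naive cells. Falls from naive to IL-2 cells numbered 2 after median centring of arrays and 2 with only the groups compared. Falls from naive to IL-12 cells numbered 1 with no filter, with the mean of a gene's probe sets, with array weights, with only the groups compared, with the replicate block and with probe sets that have a RefSeq mRNA. The last of these turned the fall of Hk1 into a difference of 0.08, the only called value that changed sign.

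The replicate block gave 15 rises in IL-12 over IL-2, 14 in IL-2 over naive and 22 in IL-12 over naive cells, against 15, 13 and 22. Differences between same-numbered arrays correlated at 0.02, -0.02 and 0.15 between pairs of groups, so the numbers were not taken as a pairing. Over single genes and settings, 1428 values kept their call status, 125 lost a call, 39 gained one and 1 reversed; sign changes of values not called under either setting are among the 1428. Why calls were lost was not tested, beyond the fewer arrays of those fits.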
